A study of Mus musculus with 22 samples.

Results

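The transforming growth factor beta (TGF-beta) system was described through 10 genes of whole mouse lung: the ligands Tgfb1, Tgfb2 and Tgfb3, the latent TGF-beta binding proteins Ltbp1, Ltbp2, Ltbp3 and Ltbp4, and the receptors Tgfbr1, Tgfbr2 and Tgfbr3. They were chosen by gene symbol, and all 10 were found among the 54532 genes of the deposited table and passed the filter on low counts. RNA came from lungs of young male C57BL6/j mice kept in normoxia or hypoxia and given ABT-263 (navitoclax, an inhibitor of the anti-apoptotic BCL-2 proteins used to remove senescent cells) at 50 mg/kg per day, or its vehicle, for 8 days. The control group was normoxia with vehicle (5 libraries), and the other groups were normoxia with ABT-263 (6), hypoxia with vehicle (6) and hypoxia with ABT-263 (5). The oxygen level is not given in the labels. The RNA is from whole lung, so fewer cells of a type and less RNA per cell cannot be told apart.

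TGF-beta is secreted bound to its own propeptide, which keeps it inactive. In most tissues this latent complex is linked to a latent TGF-beta binding protein (LTBP), which anchors it to fibrillin microfibrils in the matrix. LTBP2 does not bind latent TGF-beta, and LTBP4 is needed for elastic fibre assembly in the lung. Once released, the ligand binds TGFBR2, which recruits and activates TGFBR1, and that receptor phosphorylates SMAD2 and SMAD3. TGFBR3 (betaglycan) is a co-receptor that presents ligand, above all TGF-beta 2, to TGFBR2. In the lung the system is known for its part in matrix production and in remodelling of vessel walls.

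Library totals ran from 11509007 to 15744193 expected counts, and each member had between 261 and 5582 counts in any library. In 3 libraries (replicate 1 of normoxia with ABT-263, of hypoxia with vehicle and of hypoxia with ABT-263) the sample title and the treatment tag disagree, and the title was followed. Without them 5 members passed for hypoxia with vehicle and 6 for hypoxia with ABT-263, in place of 6 and 8. The labels give no separate duration of hypoxia. They do not say that each library is a separate animal, and if some are not, the p-values measure a spread that is in part technical. Markers of lung epithelium were present in every library, with the summed level of 6 alveolar type 2 genes between 28377 and 39301 CPM (read counts scaled to an equal library total) over all groups.

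Of the 10 members 5 passed the test in both hypoxia comparisons, and for 4 of these a RefSeq start site was at hand, so the 250 bases before it are shown for the members the results turn on (GRCm38.p6, 5′ to 3′ on the gene's strand). Capitals mark the core of the hypoxia response element, ACGTG or GCGTG on either strand. Tgfb1 (chr7:25686752-25687001, plus strand) and Ltbp4 (chr7:27337613-27337862, minus strand) were lower in hypoxia, and Tgfb2 (chr1:186705990-186706239, minus strand) and Ltbp2 (chr12:84876492-84876741, minus strand) were higher.
Tgfb1: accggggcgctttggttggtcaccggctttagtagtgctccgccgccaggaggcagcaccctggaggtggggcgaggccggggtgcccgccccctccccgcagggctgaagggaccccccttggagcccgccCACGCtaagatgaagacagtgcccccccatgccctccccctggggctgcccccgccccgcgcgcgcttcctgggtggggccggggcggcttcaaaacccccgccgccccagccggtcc
Ltbp4: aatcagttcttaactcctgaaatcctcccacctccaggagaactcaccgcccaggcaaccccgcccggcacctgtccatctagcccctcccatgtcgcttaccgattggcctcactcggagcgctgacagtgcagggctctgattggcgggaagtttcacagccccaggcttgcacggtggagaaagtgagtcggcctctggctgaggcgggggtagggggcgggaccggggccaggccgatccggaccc
Tgfb2: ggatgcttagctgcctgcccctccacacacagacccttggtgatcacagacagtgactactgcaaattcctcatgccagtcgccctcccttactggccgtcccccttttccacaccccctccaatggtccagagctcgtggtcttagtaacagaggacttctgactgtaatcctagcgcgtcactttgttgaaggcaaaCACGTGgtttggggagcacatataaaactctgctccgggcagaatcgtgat
Ltbp2: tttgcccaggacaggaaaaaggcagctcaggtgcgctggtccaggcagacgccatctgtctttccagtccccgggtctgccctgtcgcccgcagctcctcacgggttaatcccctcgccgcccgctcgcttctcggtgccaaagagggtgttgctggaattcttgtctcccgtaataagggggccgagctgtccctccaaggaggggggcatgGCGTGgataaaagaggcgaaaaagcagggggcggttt

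The core was found once before Tgfb1, with its first base at −118 from the start, and once before Ltbp2 at −37. Before Tgfb2 it was found on both strands as the palindrome CACGTG from −51. None was in the Ltbp4 window. Over all 32851 RefSeq windows of this length, 38.6% held at least 1 core, so windows with and without it are both common. The letters CAGAC, a SMAD-binding motif searched on both strands, occurred 2 times before Tgfb2 and 2 times before Ltbp2 and not before Tgfb1 or Ltbp4, against 42.2% of all windows with at least 1. A match here is a description of the letters only. The Ltbp4 window belongs to the most upstream of 3 RefSeq starts. The GENCODE genes start further upstream, so the last 41 bases of the Ltbp2 window, with its core, and the last 80 of the Ltbp4 window lie inside the annotated gene.

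On the length-scaled level (CPM per kilobase of exon) the most abundant member in control lungs was Ltbp4, at 45.2 ± 4.37 CPM per kb (SD, n = 5). It was followed by Tgfbr2 at 20.2 ± 3.21, Tgfb3 at 14.9 ± 2.41, Ltbp3 at 13.8 ± 0.683 and Tgfbr3 at 12.1 ± 1.09 CPM per kb. Tgfb1 was at 8.49 ± 1.12, Ltbp2 at 6.89 ± 1.12, Ltbp1 at 6.24 ± 0.551, Tgfbr1 at 5.90 ± 0.469 and Tgfb2 at 4.63 ± 0.316 CPM per kb. Ltbp4 stood clear of the rest, Tgfbr3 lay just above Tgfb1 (lowest 10.8 against highest 10.1 CPM per kb), and Tgfb2 lay below all others in every control library. The ranges of the other neighbours in this order overlapped. The places of Tgfb1, Ltbp3 and Ltbp1 in this order rest on the gene length used. Divided by the longest annotated transcript in place of all exons, Tgfb1 was at 16.6, Tgfb3 at 14.9 and Tgfbr3 at 13.1 CPM per kb. On that scale Ltbp3 was at 21.8, above Tgfbr2 at 20.4, and Ltbp1 stood above Ltbp2, which was at 8.33 CPM per kb.

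**Figure D1:**
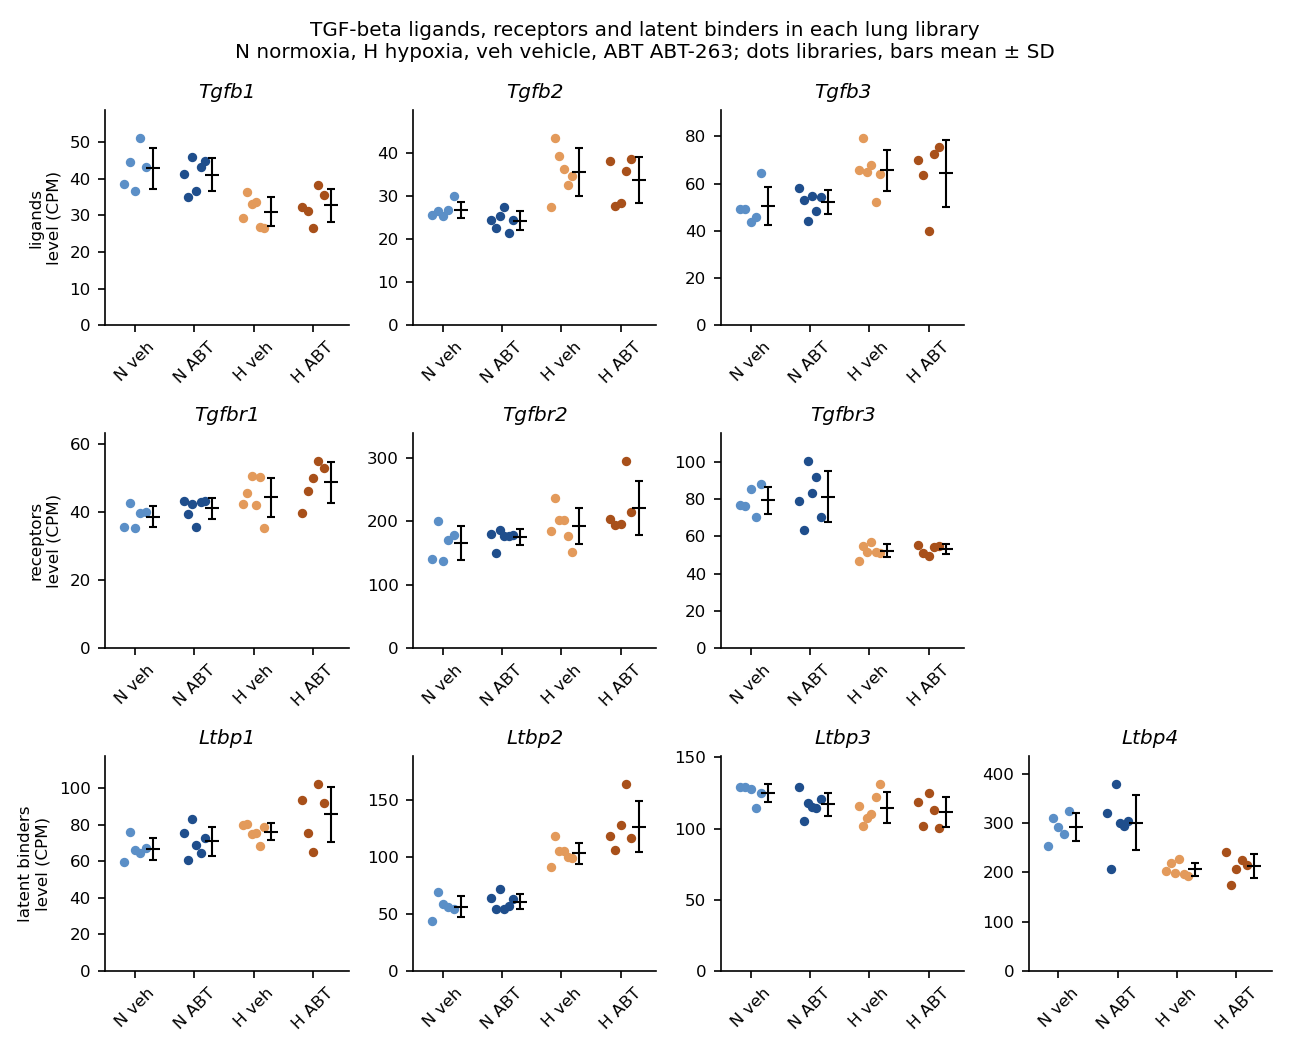
Level in CPM (vertical axes, from 0) of each member in every library of the 4 groups, with dots for libraries and black bars for the mean and SD (N normoxia, H hypoxia, veh vehicle, ABT ABT-263). Ltbp2 stands higher, and Tgfbr3 lower, in all 11 hypoxia libraries than in all 11 normoxia libraries.

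The first question was what differed at day 8 between hypoxia and normoxia in vehicle-treated lungs. The members did not move together. Tgfb2, Tgfb3 and Ltbp2 rose, and Tgfb1, Ltbp4 and Tgfbr3 fell. Thus 6 of 10 members passed edgeR's quasi-likelihood test (adjusted p under 0.05 over all 16638 genes tested), against 26.3% of all genes, and 13.5% of all genes were higher and 12.8% lower. The median absolute log2 fold change was 0.39 for the members and 0.20 for all genes. In 4 members the libraries of the 2 groups did not overlap, against 14% of all genes.

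Among ligands, Tgfb1 encodes the isoform made by platelets, leukocytes and many other cells (ENSMUSG00000002603; GRCm38 chromosome 7, 25687002 to 25705077). Its level was 38.4, 44.6, 36.8, 51.1 and 43.1 CPM in control libraries 1 to 5, and 26.6 to 36.4 CPM (median 31.1) in the 6 hypoxia vehicle libraries. Every hypoxia library lay below every control library, the closest being 36.4 and 36.8 CPM. The log2 fold change was −0.47 ± 0.10 (SE; edgeR adjusted p = 0.00166).

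Tgfb2, the isoform that depends most on betaglycan (ENSMUSG00000039239; chromosome 1, 186622792 to 186705989), went the other way. It was at 25.7, 26.4, 25.4, 26.7 and 30.0 CPM in control libraries 1 to 5 and at 27.4 to 43.4 CPM (median 35.5) in hypoxia. Only the lowest hypoxia library fell within the control range. The log2 fold change was 0.41 ± 0.10 (edgeR adjusted p = 0.00516). Tgfb3 (ENSMUSG00000021253; chromosome 12, 86056745 to 86079041) was at 49.1, 49.2, 43.7, 45.9 and 64.5 CPM in control libraries and 52.1 to 79.2 CPM (median 65.1) in hypoxia. The groups overlapped through control library 5 alone. Its log2 fold change was 0.38 ± 0.13 (edgeR adjusted p = 0.0348), and this call was lost under 10 of 32 alternatives, with values of 0.31 to 0.48 over all of them. Among these were the fits without any 1 of control replicates 1, 2, 3 and 4 and hypoxia vehicle replicates 2, 3 and 4.

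Among latent binders, Ltbp2, which is tied to microfibrils and not to latent TGF-beta, had the largest change of the 10 (ENSMUSG00000002020; chromosome 12, 84783212 to 84876532). It was at 44.1, 69.4, 58.8, 55.7 and 53.8 CPM in control libraries and at 90.8 to 118.5 CPM (median 102) in hypoxia vehicle libraries. The groups were far apart. The log2 fold change was 0.87 ± 0.11, or 1.83-fold (edgeR adjusted p = 2.56e-06).

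Ltbp4, the LTBP of elastic fibre assembly (ENSMUSG00000040488; chromosome 7, 27305136 to 27337692), was at 253, 311, 292, 277 and 325 CPM in control libraries and at 192 to 226 CPM (median 201) in hypoxia. All hypoxia libraries lay below all control libraries. The log2 fold change was −0.50 ± 0.11 (edgeR adjusted p = 0.00111). Ltbp1 and Ltbp3, which both bind latent TGF-beta, did not pass, at 0.19 ± 0.10 (adjusted p = 0.135) and −0.13 ± 0.07 (adjusted p = 0.21). The 95% interval of the Ltbp1 change ran from −0.0019 to 0.39 and that of Ltbp3 from −0.27 to 0.024.

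Among receptors only the co-receptor Tgfbr3 passed (ENSMUSG00000029287, chromosome 5, 107106570 to 107289629). It was at 76.9, 76.3, 85.4, 70.7 and 88.2 CPM in control libraries and at 46.7 to 56.8 CPM (median 51.8) in hypoxia vehicle libraries. No library of either group came within the range of the other. The log2 fold change was −0.61 ± 0.09 (edgeR adjusted p = 2.14e-05). The signalling receptors Tgfbr1 (0.20 ± 0.09, adjusted p = 0.103) and Tgfbr2 (0.22 ± 0.12, adjusted p = 0.17) did not pass, with 95% intervals from 0.014 to 0.39 and from −0.020 to 0.46.

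The opposite changes altered the makeup of each class. Of the length-scaled ligand level, Tgfb1 held 30.4% ± 3.62 in control lungs (SD, n = 5) and 19.4% ± 1.06 in hypoxia with vehicle (SD, n = 6). Tgfb3 held 53.0% ± 3.73 and 61.2% ± 2.38 in the same groups. The summed ligand level overlapped between them, at 24.6 to 32.8 and 26.4 to 38.1 CPM per kb. Of the latent binders, Ltbp2 went from 9.53% ± 1.06 to 19.6% ± 1.34 and Ltbp4 from 62.6% ± 1.72 to 49.6% ± 1.83. Of the receptors, Tgfbr3 went from 32.0% ± 3.96 to 21.0% ± 2.10. These shares are described and not tested. With the longest transcript as length the Tgfb1 share was 45.2% and 31.4%, and the Tgfb3 share 40.5% and 50.5%. The size of these shares, and which ligand held the most in control lungs, thus depend on the length. The direction of their changes does not.

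**Figure D2:**
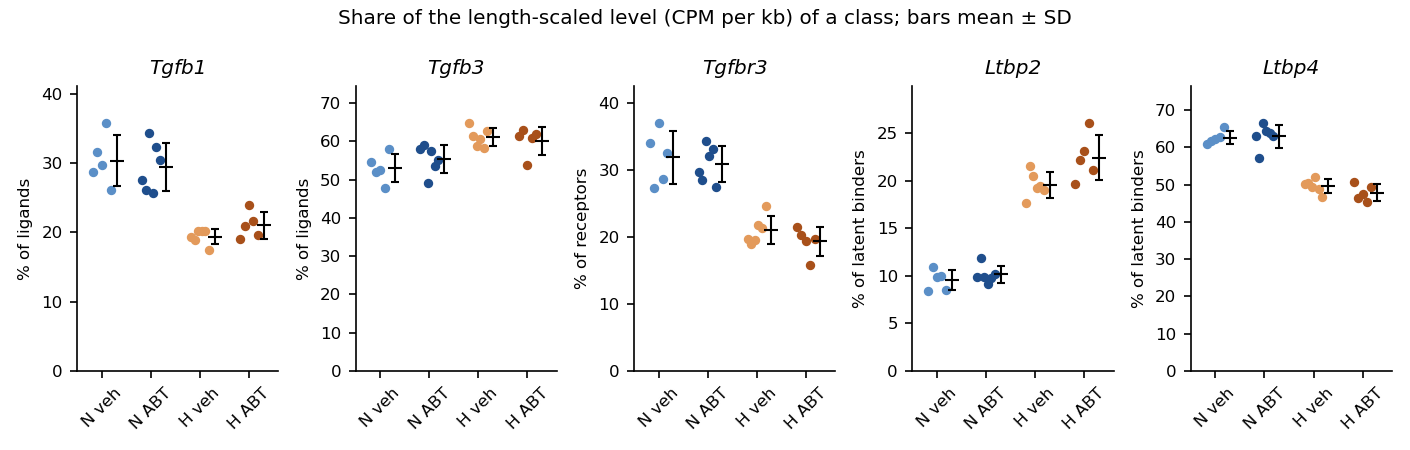
Share (%, vertical axes) of the summed length-scaled level of ligands, receptors or latent binders taken by 5 members, with dots for libraries and bars for mean and SD (group names as for the levels). The Ltbp2 share lies between 8.37% and 11.8% in normoxia libraries and between 17.7% and 26.1% in hypoxia libraries.

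The same question was asked in ABT-263-treated lungs, whose libraries were in neither of the groups first compared. Both comparisons came from the same fit of all groups, so they shared the filter, the scaling and the estimate of the spread. Here 8 of 10 members passed, 5 higher and 3 lower, against 39.2% of all genes (17.9% higher, 21.3% lower). Tgfb1, Ltbp4 and Tgfbr3 again fell and Tgfb2 and Ltbp2 again rose, and Ltbp1, Tgfbr1 and Tgfbr2 also passed as higher. The groups did not overlap in 4 members (Tgfb2, Ltbp2, Tgfbr2 and Tgfbr3), against 17.6% of all genes.

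Ltbp2 was at 118, 106, 128, 164 and 116 CPM in hypoxia ABT-263 libraries 1 to 5 and at 54.1 to 71.5 CPM (median 59.9) in normoxia ABT-263 libraries. Library 4 was the highest of all 22, and the lowest hypoxia library was well above the highest normoxia one. The log2 fold change was 1.06 ± 0.11 (edgeR adjusted p = 5.7e-08). Tgfbr3 was at 55.5, 51.4, 49.6, 54.5 and 55.1 CPM in hypoxia and 63.7 to 100.5 CPM (median 81.3) in normoxia. Its log2 fold change was −0.61 ± 0.09 (edgeR adjusted p = 1.17e-05).

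Ltbp4 fell by 0.50 on the log2 scale (SE 0.11, edgeR adjusted p = 0.000625), from 207 to 379 CPM in normoxia to 175 to 241 CPM in hypoxia. These ranges overlapped because normoxia ABT-263 replicate 2 was at 207 CPM. Tgfb2 rose by 0.47 ± 0.10 (edgeR adjusted p = 0.00089). It was at 38.1, 27.6, 28.3, 35.9 and 38.7 CPM in hypoxia and at 21.5 to 27.5 CPM in normoxia, so 2 hypoxia libraries stood just above the normoxia range. Tgfb1 was at 32.2, 31.3, 26.5, 38.4 and 35.6 CPM in hypoxia and 34.9 to 46.0 CPM in normoxia. The groups overlapped, and the log2 fold change was −0.33 ± 0.10 (edgeR adjusted p = 0.0147). Without hypoxia ABT-263 replicate 3 the Tgfb1 change was −0.26 (adjusted p = 0.058), and without the 3 libraries with conflicting labels −0.30 (adjusted p = 0.0596).

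Tgfbr2, which binds the ligand first, rose by 0.34 ± 0.12 (edgeR adjusted p = 0.0232). Hypoxia ABT-263 replicate 4 stood far above the rest at 295 CPM, with the other 4 at 193 to 215 CPM, and without it the change was 0.22 (adjusted p = 0.095). Tgfbr1 rose by 0.24 ± 0.09 (adjusted p = 0.0326) and Ltbp1 by 0.28 ± 0.09 (adjusted p = 0.0233). Tgfbr1 did not pass without normoxia ABT-263 replicate 4 (0.21) or hypoxia ABT-263 replicate 3 (0.24), 4 (0.21) or 5 (0.23), nor Ltbp1 without normoxia ABT-263 replicate 5 (0.25) or hypoxia ABT-263 replicate 4 (0.22). Ltbp1 also did not pass without the 3 libraries with conflicting labels (0.28, adjusted p = 0.0532) or with treatment read from the tag (0.25, adjusted p = 0.0747). Tgfb3 did not pass (0.30 ± 0.13, adjusted p = 0.067). It was at 69.9, 63.4, 72.5 and 75.6 CPM in hypoxia ABT-263 replicates 1, 2, 4 and 5 and at 39.9 CPM in replicate 3, without which the change was 0.43 (adjusted p = 0.00246). Ltbp3 was at −0.07 ± 0.07 (adjusted p = 0.491). Without hypoxia ABT-263 replicate 4 the number of members that passed was 5, and it was also 5 without normoxia ABT-263 replicates 2 and 6.

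**Figure D3:**
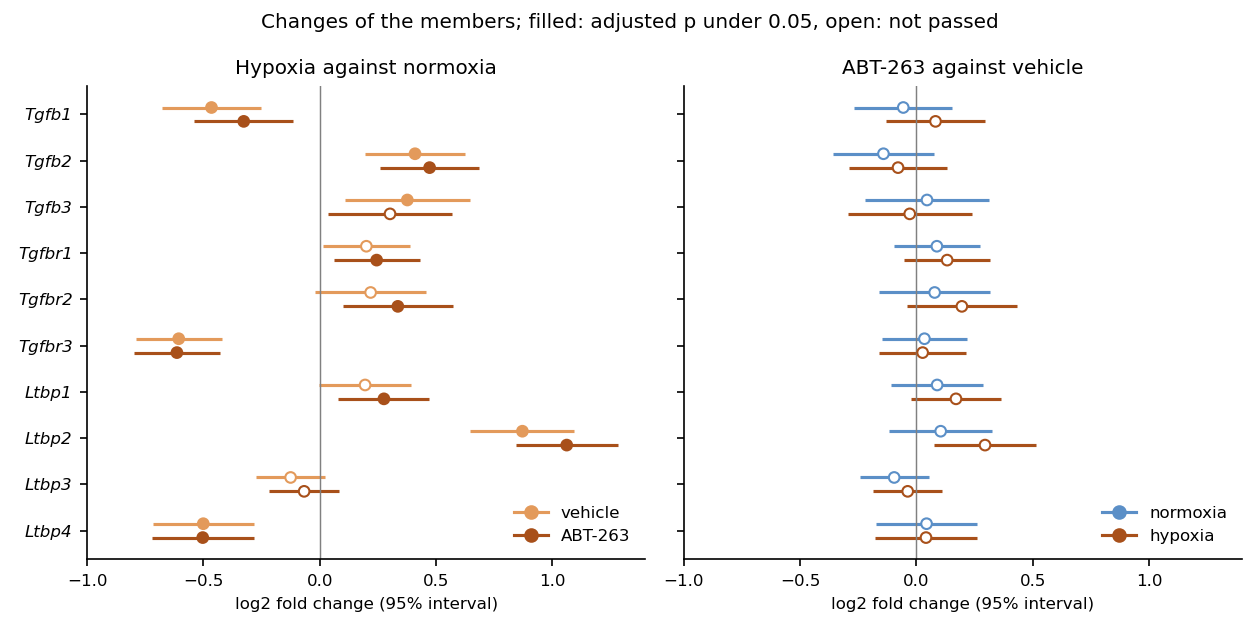
Log2 fold change (horizontal axis) with 95% interval of each member for hypoxia against normoxia (left) and ABT-263 against vehicle (right), filled where the adjusted p is under 0.05. Ltbp2 has the highest and Tgfbr3 the lowest value on the left, and no symbol is filled on the right.

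The next question was whether ABT-263 changed these genes. With edgeR none of the 10 members passed in normoxia, where 0.535% of all genes did, and none in hypoxia, where 0.301% did. At an unadjusted p under 0.05 the counts were 0 and 1, against 13.0% and 14.3% of all genes. Averaged over both oxygen conditions none passed either, against 2.54% of all genes (1.23% higher, 1.31% lower), with 1 member and 17.3% of all genes at an unadjusted p under 0.05. DESeq2 and limma-voom also called 0 members in each. The member with the smallest p was Ltbp2 in hypoxia, at 0.30 ± 0.11 (edgeR adjusted p = 0.212), with a 95% interval from 0.078 to 0.51. In normoxia the changes lay between −0.14 (Tgfb2) and 0.10 (Ltbp2), and in hypoxia between −0.08 (Tgfb2) and 0.30 (Ltbp2). The median standard error of a member was 0.10 in both. Ltbp2 also had the highest upper bound of the members in normoxia, at 0.33. In both conditions the libraries of the 2 treatments overlapped in all 10 members, and 2.12% of all genes did not overlap in normoxia and 1.98% in hypoxia.

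Whether hypoxia acted differently with ABT-263 was tested as the interaction. With edgeR no member passed, and 0% of all 16638 genes did. At an unadjusted p under 0.05 there were 0 members and 9.29% of all genes. DESeq2 and limma-voom called 0 members as well. The estimates lay between −0.07 (Tgfb3) and 0.19 ± 0.15 (Ltbp2), with a median standard error of 0.15. That Tgfbr1, Tgfbr2 and Ltbp1 passed only with ABT-263, and Tgfb3 only with vehicle, is thus not shown to be a difference between the treatments.

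Other genes of the pathway were counted in 5 lists, which share some genes. Their counts stand against the 26.3% of all genes called with vehicle and 39.2% with ABT-263. Of 16 genes of latent storage and activation 5 rose and 2 fell in hypoxia with vehicle (median log2 fold change 0.19, against −0.0038 over all genes). Fn1, which encodes the fibronectin on which LTBPs are first deposited, rose from 130 ± 24.8 to 225 ± 24.6 CPM (log2 fold change 0.80 ± 0.13). Plau, the urokinase gene (0.43 ± 0.11), and the integrin chain Itgav, a partner of the TGF-beta-activating beta chains (0.21 ± 0.07), rose. The integrin chain Itgb3 (−0.42 ± 0.13) and Nrros, which tethers latent TGF-beta on macrophages and microglia (−0.58 ± 0.09), fell. In ABT-263-treated lungs 8 rose and 5 fell, among them Itgb8, the chain of the activating integrin alpha v beta 8 (1.61 ± 0.27), and Itgb3 (−0.73 ± 0.13). Itgb8 was at only 1.24 ± 0.255 CPM in control lungs and 0.769 ± 0.416 CPM in normoxia with ABT-263. It also rose with vehicle (0.75 ± 0.26, edgeR adjusted p = 0.0322). Without control replicate 2 the number called in vehicle-treated lungs was 4. With vehicle, Itgb3 did not pass without control replicate 2 (−0.33) or 5 (−0.39), nor Itgav without control replicate 2 (0.20) or 3 (0.18) or hypoxia vehicle replicate 3 (0.19) or 5 (0.16).

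Of 16 tested genes of elastic microfibrils, the scaffold that LTBPs bind, 8 rose and 2 fell (median 0.40). Mfap4 rose from 507 ± 112 to 1574 ± 234 CPM (1.63 ± 0.14), Eln, the elastin gene, from 312 ± 94.4 to 958 ± 165 CPM (1.62 ± 0.24), and Lox, a cross-linking enzyme, from 46.5 ± 11.6 to 114 ± 15.4 CPM (1.30 ± 0.15). Fbn1, the fibrillin to which LTBPs attach, rose by 0.73 ± 0.09 and Fbln5, a fibulin of elastic fibres, by 0.54 ± 0.09. In ABT-263-treated lungs 9 rose and 1 fell, with Fbn1 at 1.09 ± 0.09 and Mfap4 at 1.83 ± 0.13. Ltbp2 rose as most of the called microfibril genes did, and Ltbp4 fell.

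Of 12 co-receptors and ligand traps 1 rose and 3 fell with vehicle (median −0.05), a share near the 26.3% of all genes. Eng, the endothelial co-receptor endoglin, fell from 329 ± 45.3 to 137 ± 20.8 CPM (−1.26 ± 0.12), and its partner receptor Acvrl1 fell by 0.48 (SE 0.11). Tgfbrap1 fell by 0.23 (SE 0.07), and did not pass without control replicate 2 or 5 or hypoxia vehicle replicate 3 (−0.20 in each). Cd109, which binds TGF-beta at the cell surface, rose by 0.82 ± 0.22. With ABT-263, 2 rose and 3 fell, near the 39.2% of all genes, with Eng at −1.31 ± 0.13, Acvrl1 at −0.49 ± 0.11 and Tgfbrap1 at −0.29 ± 0.07.

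Of 17 SMADs and regulators 1 rose and 3 fell with vehicle (median −0.11), a share near the 26.3% of all genes. The inhibitory Smad6 fell from 71.5 ± 6.89 to 32.6 ± 4.24 CPM (−1.13 ± 0.17), the signal transducer Smad3 by 0.34 (SE 0.09) and the ubiquitin ligase gene Nedd4l by 0.37 (SE 0.07). Pmepa1, a TGF-beta-induced inhibitor of the pathway, rose by 0.59 ± 0.17. With ABT-263, 2 rose and 7 fell, with Smad6 at −1.64 ± 0.18, Smad3 at −0.47 ± 0.10 and Nedd4l at −0.43 ± 0.07. Without control replicate 1 the number called with vehicle was 7.

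Of 30 genes known to respond to TGF-beta 14 rose and 1 fell with vehicle (median 0.27). Tagln rose by 1.11 ± 0.11 and Snai2, which encodes the transcription factor SLUG, by 0.98 ± 0.13, besides Eln, Lox and Fn1 given above. With ABT-263, 15 rose and 4 fell, with Snai2 at 1.26 ± 0.13, Tagln at 1.01 ± 0.11 and Lox at 1.27 ± 0.14. Tagln is also a gene of smooth muscle cells, and Eln, Lox and Fn1 are matrix genes. For ABT-263 in normoxia 1 of the 30 was called, Cdkn1a, the p21 gene (0.77 ± 0.16, edgeR adjusted p = 0.0328), and averaged over oxygen conditions Cdkn1a (0.58 ± 0.11) and Tsc22d1 (0.21 ± 0.06) were. With treatment read from the tag all 3 calls were lost, at 0.49 (adjusted p = 0.577) for Cdkn1a in normoxia, and at 0.35 (0.403) for Cdkn1a and 0.19 (0.267) for Tsc22d1 on average. The Cdkn1a call in normoxia was lost in 11 of 32 alternatives, among them the fits without vehicle replicate 1, 3 or 4 or ABT-263 replicate 1, 3, 4 or 6 (0.68 to 0.77). That of Tsc22d1 was lost in 22 of 31, with values of 0.18 to 0.22 over all of them, and that of Cdkn1a on average in 1 of 31. No gene of the other 4 lists passed by edgeR in any ABT-263 comparison.

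**Figure D4:**
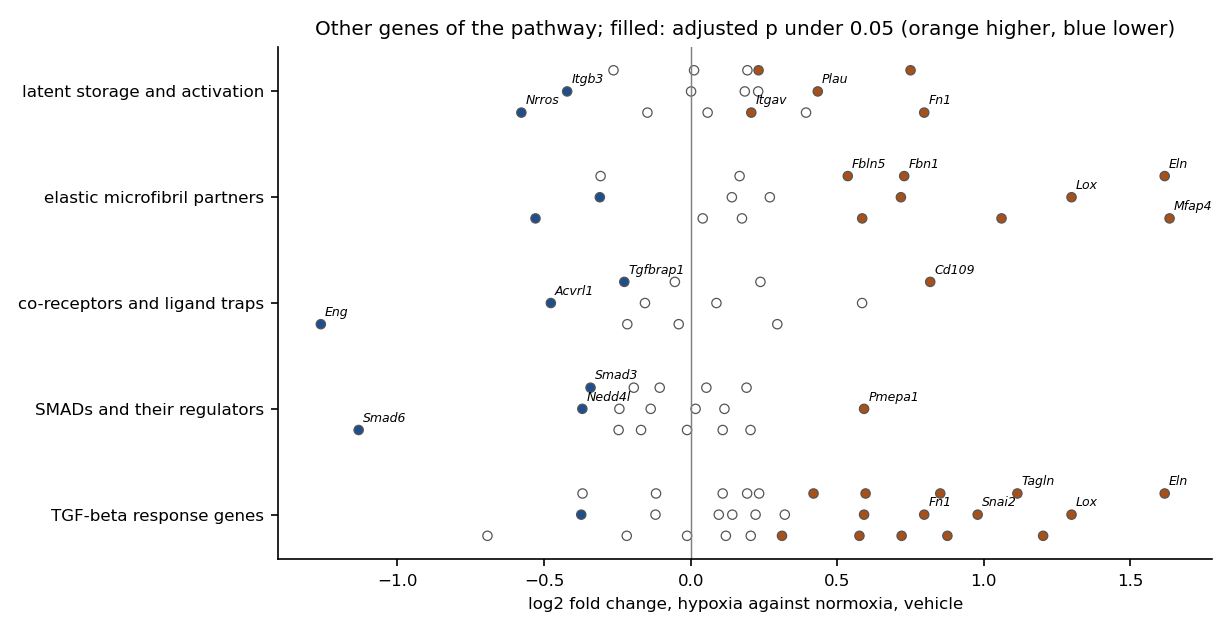
Log2 fold change for hypoxia against normoxia with vehicle (horizontal axis) of each tested gene in the 5 lists, filled where the adjusted p is under 0.05 and with named genes labelled. The microfibril list reaches furthest to the right (Mfap4 and Eln) and the co-receptor list furthest to the left (Eng).

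Levels of cell type markers moved with oxygen as well. The summed level of 6 platelet genes was 69.9 to 131 CPM in control lungs and 47.0 to 71.0 CPM in hypoxia with vehicle, where 4 of the 6 fell, while Tgfb1 was lower too. With ABT-263 in normoxia the same sum was 99.5 to 194 CPM, and 1 of the 6 was called as higher than with vehicle. Tgfb1 was at 41.2 ± 4.51 CPM there, against 42.8 ± 5.64 CPM with vehicle. Of genes typical of leukocytes, which also make Tgfb1, 5 of 5 B cell, 4 of 5 T cell and 2 of 5 neutrophil genes fell in hypoxia with vehicle. Of 6 monocyte and macrophage genes 4 fell and 1 rose. Of 6 alveolar macrophage genes 3 rose and 1 fell, and their sum was 356 to 495 CPM in control lungs and 496 to 686 CPM in hypoxia with vehicle. For ABT-263 against vehicle in normoxia, 4 of 5 B cell and 3 of 5 T cell genes fell as well. The B cell sum was 208 to 367 CPM with vehicle and 155 to 231 CPM with ABT-263. No neutrophil, monocyte and macrophage or alveolar macrophage gene was called in that comparison. Beside the rises of Ltbp2, Tgfb2 and Tgfb3, the summed level of 7 pericyte genes was 223 to 289 CPM in control lungs and 379 to 421 CPM in hypoxia with vehicle, and 5 of the 7 rose. The largest rises were in Higd1b (1.62 ± 0.12), Rgs5 (1.53 ± 0.16) and Cspg4 (1.14 ± 0.12). Pdgfrb (0.06 ± 0.11) and Cox4i2 (0.08 ± 0.08) did not pass. The sum of 7 smooth muscle genes was 885 to 1212 CPM and 1363 to 1912 CPM, and 4 of the 7 rose. Among these were Tagln (310 ± 43.5 to 671 ± 110 CPM) and Acta2 (265 ± 36.9 to 401 ± 42.6 CPM). Both are also in the list of TGF-beta response genes. Myh11 (−0.01 ± 0.16), Cnn1 (0.22 ± 0.16) and Actg2 (0.40 ± 0.18) did not pass. With ABT-263, 1 of 7 smooth muscle genes rose and 1 fell. Their sum was 947 to 1292 CPM in normoxia and 1274 to 1557 CPM in hypoxia with ABT-263. The pericyte sum was 219 to 289 CPM and 359 to 442 CPM in the same groups, and 6 of the 7 rose, all but Pdgfrb (0.09 ± 0.11). Ltbp2 and Tgfb2 rose with ABT-263 too. Of 10 fibroblast genes 2 rose with vehicle and 3 with ABT-263, and none fell in either. Of 8 endothelial genes 2 rose and 4 fell with vehicle, beside the falls of Tgfbr3, Eng and Acvrl1, and their sums overlapped (2608 to 3260 and 2425 to 2975 CPM). With ABT-263, where Tgfbr3 fell as well, 2 of the 8 rose and 2 fell. None of these markers was at 0 in all libraries. The part of cell composition in the members' changes was not tested.

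With vehicle, 3 members passed with a log2 change of at least 0.5 in size, and the genes with the most similar profile over the 22 libraries were sought for each. The measure was the root mean square difference of log2 CPM, with each gene centred on its own mean. For Ltbp2 they were Loxl2, a lysyl oxidase (0.15), C1qtnf6 (0.16) and Fstl1 (0.16), against a median of 0.57 over all other genes. For Ltbp4 they were Trim8 (0.10), Rin3 (0.11) and Sppl3 (0.11), against a median of 0.37. For Tgfbr3 they were Mtus1 (0.10), Rnf145 (0.11) and Aff3 (0.12), against a median of 0.39. These values describe likeness in these libraries, which all share the step between normoxia and hypoxia.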

How the data were processed

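Whole-lung RNA was sequenced, per the labels' protocols from stranded TruSeq mRNA libraries on a NextSeq 500. Gene-level expected counts, not scaled to depth, were deposited by the authors. Per the submitters' processing notes Trimmomatic, STAR, RSEM and GRCm38 were used, and versions and strand setting are not given in the sources used here. Reads from overlapping antisense genes may therefore be mixed.

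Groups follow the sample titles, and replicate numbers only name libraries. No library repeats another of its own group (chi-square per gene 5.35 to 40.9 between libraries of a group). Libraries of different groups were not compared in this way. Expected counts were rounded, filtered with filterByExpr (minimum count 10), and 16638 of 54532 genes were fitted in 1 model of the 4 groups. This used edgeR 4.0.16 (R 4.3.3) with TMM scaling and its quasi-likelihood test, robust setting. Tests are two-sided, with Benjamini-Hochberg adjustment over all genes tested. Standard errors are the log2 fold change divided by the square root of F, and 95% intervals use the t distribution of the fit. Levels are CPM with TMM factors. Exon lengths and coordinates come from GENCODE M21, and start-site sequences from RefSeq on GRCm38.p6, which held 8 of the 10 members.

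The members and gene lists were chosen with earlier results of these data known. All 10 members are named. Of each list, up to 5 called genes with the smallest p are named for hypoxia with vehicle and up to 3 in other comparisons. For each member called for hypoxia with vehicle with a log2 change of at least 0.5, the 3 genes nearest in profile are named. Itgb8's levels and its change with vehicle, Smad7's levels, and the values of single smooth muscle and pericyte genes were added after they were seen. So were the platelet and leukocyte marker counts for ABT-263 in normoxia, with the B cell sums. Alternatives were DESeq2 1.42.0, limma-voom (limma 3.58.1), other scaling, filters and label readings, a fit of the compared groups only, and each library left out in turn. The functions were tested on simulated data. Figures were drawn with matplotlib 3.10.9.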

Additional observations from a re-analysis of the deposited data

Results flagged for a closer look

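In each group, a library whose gap to its nearest neighbour was large for the range of the group was looked for in each member, and 3 of 40 groups had one, where chance gives about 1 in 20. Tgfb3 in normoxia vehicle replicate 5 was at 64.5 CPM, with the other 4 libraries at 43.7 to 49.2 CPM. Tgfbr2 in normoxia ABT-263 replicate 2 was at 149.5 CPM, with the other 5 at 176 to 186 CPM. Tgfbr2 in hypoxia ABT-263 replicate 4 was at 295 CPM, with the other 4 at 193 to 215 CPM. The last 2 libraries were also at the low end of the second principal component, at −22.3 and −35.5.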

How the results depend on the processing

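Over the alternatives run, none of 640 values of the 10 members in the hypoxia comparisons changed direction, 24 lost and 6 gained the call. For hypoxia with vehicle 5 to 7 members passed, both over the settings and with each library left out. For hypoxia with ABT-263 the count was 5 to 9 with each library left out and 5 without normoxia ABT-263 replicates 2 and 6 (an alternative chosen after the data were examined, since both had low values on the second principal component). The ABT-263 and interaction counts of members stayed at 0 in every setting. Calls of Tgfb2, Ltbp2, Ltbp4 and Tgfbr3 held in both hypoxia comparisons under every alternative, as did that of Tgfb1 with vehicle.

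Counts over all genes stayed within 1.5 times for hypoxia and did not for ABT-263. In normoxia, 89 became 324 with DESeq2, 17 with the compared groups only, 16 without the libraries with conflicting labels, 147 without normoxia ABT-263 replicates 2 and 6, 0 with treatment read from the tag, 59 without TMM scaling, and 1 to 183 with each library left out. In hypoxia, 50 became 247, 152, 77, 257 and 0 in the order of the first 5, 9 with limma-voom, and 3 to 228 with each library left out. The average went from 423 to 793 with DESeq2, 253 with limma-voom, 257 with no filter, 271 without TMM scaling, 0 with the tag, and 164 to 649 with each library left out. The interaction went from 0 to 17, 1 and 8 with DESeq2, without conflicting labels and without those 2 replicates, and to at most 2 with each library left out. The cause was not tested. No paired analysis was possible because the labels give no shared replicate numbers. Counting limits little here, since no member had under 261 counts in a library.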
